A study of Ovis aries with 15 samples.

Results

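The caseins of sheep milk are encoded by 4 genes that lie in a cluster on chromosome 6, CSN1S1 (alpha-S1-casein), CSN2 (beta-casein), CSN1S2 (alpha-S2-casein) and CSN3 (kappa-casein). They were taken as the rows of the deposited table whose feature name is a casein symbol, which gave 4 genes of the 24691 features in the table. RNA was measured by paired-end sequencing in 15 libraries, each made from pooled RNA of needle biopsies of mammary parenchyma from Romney ewes aged 2 years that were in their first pregnancy and lactation. The 9 late pregnancy libraries came from day 135 ± 2.4 (SD) of gestation and the 6 lactation libraries from day 15 ± 1.27 (SD) after lambing, and the same flock was biopsied at both times. All ewes were fed alike, and the labels divide them only by the feeding of their own dams. The dams of HM ewes were fed ad libitum in early gestation, those of MM ewes at maintenance and those of LM ewes below maintenance, with maintenance feeding afterwards in these 3 groups. Each dam group had 3 late pregnancy pools and 2 lactation pools. The labels give 3 ewes to a late pregnancy pool and 2 to a lactation pool, the study's methods give the same number to both, and neither says whether a lactation pool held ewes of the late pregnancy pool of the same name. P-values therefore describe the spread between pools of ewes.

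The caseins are the main proteins of ruminant milk and are made by the secretory epithelial cells of the alveoli. The alpha-S1, alpha-S2 and beta-caseins are phosphoproteins that bind calcium phosphate and form the interior of the casein micelle. Kappa-casein is glycosylated, carries little phosphate and stabilizes the surface of the micelle, and it is the casein that rennet cleaves. Transcription of the casein genes in the mammary gland depends on prolactin acting through JAK2 and STAT5, on glucocorticoids and on the epithelial factor ELF5, and it begins before parturition.

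Late pregnancy libraries held 6471237 to 16898986 exon reads, and those of lactation 9014506 to 24001031. The lactation library of HM pool 1 stood apart, since 86.8% of its reads on genes lay in exons against 93.3% to 94.2% in the other lactation libraries. In that library, introns of 4 genes outside the casein cluster took 6.09% of the reads on genes, against at most 0.401% in any other library, and results that move without it are given both ways. Levels are given as CPM, exon reads scaled to a common library size after adjusting each library by the trimmed mean of M values (TMM), or as RPKM, which also divides by exon length. The secretory epithelium marker ELF5 was present in both states (mean 629 CPM and 1100 CPM), as were KRT19 and EPCAM. Of all 13345 genes tested between the states, 33.1% were called higher in lactation and 35.2% lower, and the counts of list members stand against these shares. Of the marker lists, 4 of 7 secretory luminal genes were higher in lactation and 1 lower, and their summed level ranged from 1431 to 1751 CPM in late pregnancy and from 2301 to 2560 CPM in lactation. Of the tested markers, 3 of 7 myoepithelial genes were higher and 2 lower, 3 of 4 fibroblast, 3 of 3 endothelial, 3 of 5 macrophage and 5 of 5 T cell genes were lower, 1 macrophage gene was higher, 0 of 3 adipocyte genes passed the test, 2 of 3 B and plasma cell genes were higher and 1 lower, and 1 of 2 neutrophil genes was higher. Summed levels were lower without overlap for T cell (36.3 to 58.7 CPM before lambing, 12.1 to 18.3 CPM after it), endothelial (140 to 192, 85.8 to 124) and macrophage markers (104 to 136, 62.2 to 92.1). They were higher without overlap for luminal and neutrophil markers (0.366 to 0.887, 3.96 to 16.0). The neutrophil sum rested on MPO alone, at a mean of 0.038 CPM before lambing and 12.9 CPM after it. CSF3R was not called (log2 change -0.46), and the other neutrophil markers had too few reads to be tested or were not matched by name. The states overlapped for fibroblast (353 to 627, 225 to 372), myoepithelial (558 to 632, 531 to 786), adipocyte (221 to 426, 300 to 392) and B and plasma cell markers (28.1 to 74.3, 60.8 to 150). No marker in the lists was at 0 in every library. The part of such shifts in the casein values was not tested, and in pieces of whole tissue more secretory cells and more RNA per cell cannot be told apart.

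In the deposited coordinates on chromosome 6 (sheep assembly Oar version 3.1 in the submitters' processing notes), the cluster ran from 85088046 to 85318900, a span of 231 kb. CSN1S1 lay at 85088046-85104769 with 18 exons, CSN2 at 85115577-85124731 with 9, CSN1S2 at 85181904-85198575 with 18, and CSN3 at 85307051-85318900 with 5. CSN1S1 and CSN2 were 10.8 kb apart, CSN2 and CSN1S2 57.2 kb, and CSN1S2 and CSN3 108 kb. The exons summed to 1110 bases in CSN1S1, 1088 in CSN2, 1024 in CSN1S2 and 854 in CSN3, each gene had 1 annotated transcript, and every casein exon read was uniquely placed.

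All 4 caseins took a larger share of the exon reads in every lactation library than in any late pregnancy library. Together they took 13.3% ± 2.74 (SD, n = 9) of the exon reads in late pregnancy, from 10.1% to 18.3%, and 66.3% ± 1.52 (SD, n = 6) in lactation, from 64.2% to 68.4%. CSN1S2 made the largest step, from the 70th most abundant feature at the median of the late pregnancy libraries to rank 3 or 4 in lactation, whereas the other 3 caseins were already among the first 4 features by RPKM in every late pregnancy library.

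CSN2 took 3.92% of the exon reads in the lowest late pregnancy library, 5.47% at the median and 7.29% in the highest, and in lactation 23.7%, 24.4% and 26.3%. CSN1S1 took 3.23%, 4.04% and 6.06% before lambing, and after it 21.1%, 22.1% and 23.5%. CSN3 took 2.14%, 2.97% and 3.94% before lambing, and after it 7.55%, 7.79% and 8.36%. The states did not overlap for any of these 3 genes, and the highest late pregnancy library was HM pool 1 for CSN2 and CSN3 and HM pool 3 for CSN1S1. CSN1S2 took 0.161%, 0.208% and 1.02% before lambing, and after it 9.74%, 11.9% and 12.9%. The late pregnancy libraries of CSN1S2 were uneven, with HM pool 1 (1.02%), LM pool 1 (0.553%) and HM pool 3 (0.478%) above the 6 others.

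**Figure D1:**
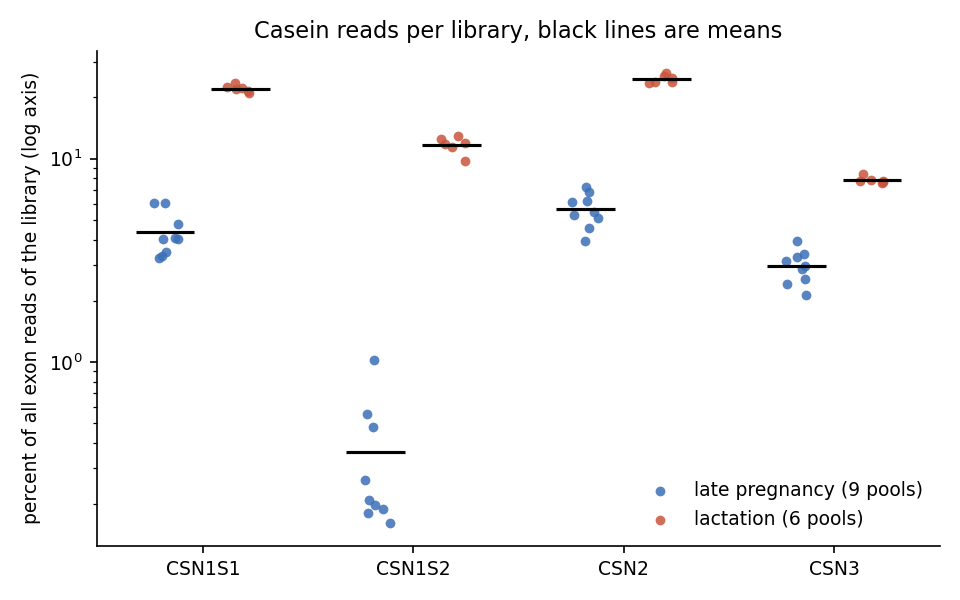
Share of all exon reads of a library taken by each casein, in percent on a log axis, with 1 point for each of the 9 late pregnancy (blue) and 6 lactation (red) pools and a black line at the mean. Lactation points lie above all late pregnancy points for every gene, and CSN1S2 has the widest spread in late pregnancy, from 0.161% to 1.02%.

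The states were compared with edgeR on exon reads. A gene is called here at a Benjamini-Hochberg adjusted p under 0.05 over all 13345 genes tested. Since TMM scales a library on the bulk of its genes, the casein CPM of a lactation library can add up to more than the common library size, and their sum averaged 1470130. By this fit CSN1S2 rose by 6.88 ± 0.44 (SE) on the log2 scale (adjusted p = 3.07e-11), from a mean of 2206 to 259728 CPM, an increase of 118-fold. CSN1S1 rose by 4.24 ± 0.17 (adjusted p = 3.21e-14), CSN2 by 4.03 ± 0.15 (adjusted p = 8.31e-15) and CSN3 by 3.29 ± 0.14 (adjusted p = 4.79e-14), or 18.9-fold, 16.3-fold and 9.78-fold. Thus 4 of 4 caseins were called higher in lactation, where 33.1% of all tested genes were, and 4 of 4 had no overlap between the states, as had 20.2% of all tested genes in that direction. CSN1S2 had the 19th largest rise among the tested genes, CSN1S1 the 82nd, CSN2 the 89th and CSN3 the 158th.

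The size of these changes depended on the scaling, and their direction did not. Scaling on library size alone moved the median log2 change of all tested genes from -0.03 to -1.94 and the calls from 4419 higher and 4703 lower to 352 higher and 12705 lower. It left log2 increases of 5.02 for CSN1S2, 2.35 for CSN1S1, 2.13 for CSN2 and 1.40 for CSN3, all called. On the quantile-normalized RPKM deposited by the authors, tested with limma, the increases were 4.92 for CSN1S2, 0.71 for CSN1S1, 0.30 for CSN2 and 0.016 for CSN3, and that of CSN3 was not called (adjusted p = 0.875). After quantile normalization the sorted values of all libraries are equal, and a gene's value is set by its rank.

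The proportions among the caseins, which need no scaling between libraries, differed between the states for CSN1S2, CSN3 and CSN2. CSN1S2 made up 2.52% ± 1.45 (SD, n = 9) of the casein exon reads in late pregnancy and 17.6% ± 1.40 (SD, n = 6) in lactation. Its late pregnancy libraries ranged from 1.54% through a median of 1.78% to 5.59%, and its lactation libraries from 15.2% through 17.7% to 19.1%. The difference of 15.1 percentage points had an exact permutation p of 0.0002, the smallest this test can give with 9 and 6 libraries. CSN3 went the other way, from 22.4% ± 1.86 to 11.8% ± 0.616 of the casein reads (exact permutation p = 0.0002). The CSN3 proportion lay between 19.9% and 25.2% in late pregnancy and between 11.4% and 13.0% in lactation, again with no overlap.

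CSN2 had the largest proportion in both states. It went from 42.6% ± 4.01 of the casein reads to 37.2% ± 1.10, with a difference of -5.39 percentage points (exact permutation p = 0.0042). Its lowest late pregnancy library, at 38.7%, was only just above its highest lactation library, at 38.4%, and on the RPKM scale, which divides by exon length, the states overlapped (40.3% ± 3.93 and 35.9% ± 1.07, exact permutation p = 0.0126). CSN1S1 had 32.5% ± 2.65 of the casein reads in late pregnancy and 33.3% ± 1.45 in lactation, and its difference of 0.898 percentage points was within the spread between pools (exact permutation p = 0.477). On the RPKM scale CSN3 stood at 27.0% ± 2.12 and 14.5% ± 0.745 and CSN1S2 at 2.53% ± 1.45 and 18.1% ± 1.44. The 4 proportions add up to 100% in a library and are not independent of each other. All tests of proportions were two-sided, and adjustment over the 4 gave at most 0.00559 for CSN1S2, CSN2 and CSN3 by reads.

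**Figure D2:**
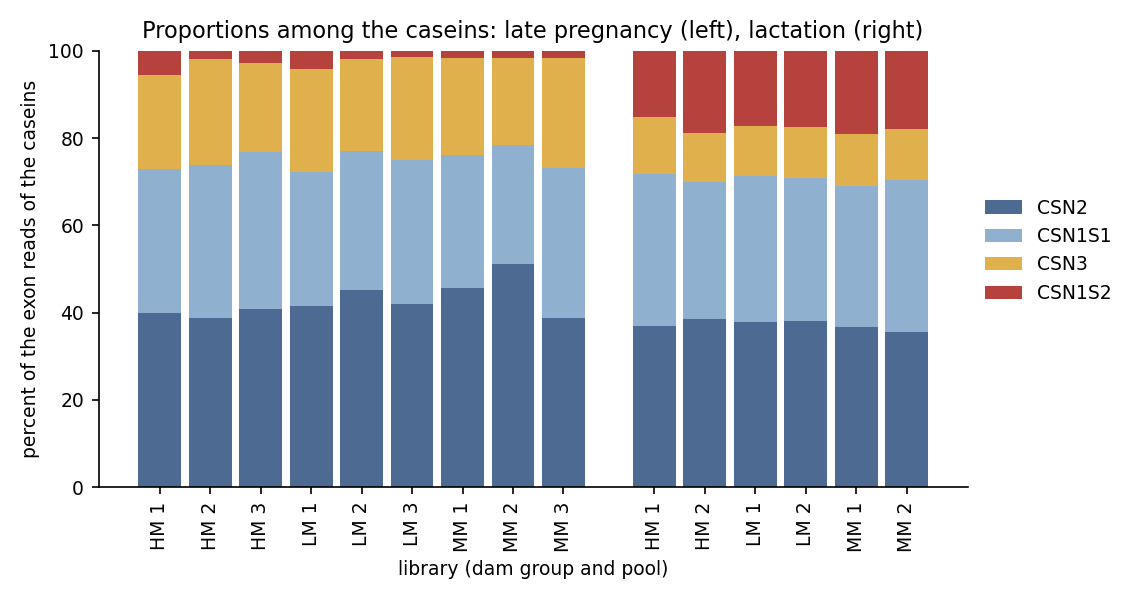
Proportions among the caseins, in percent of the casein exon reads of a library, with 1 bar for each of the 9 late pregnancy libraries (left) and 6 lactation libraries (right), named by dam group and pool. The CSN1S2 segment takes 1.54% to 5.59% of a late pregnancy bar and 15.2% to 19.1% of a lactation bar, and the CSN3 segment is narrower in every lactation bar.

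By RPKM, which allows levels of different genes to be compared, the order in late pregnancy was CSN2, CSN1S1, CSN3 and CSN1S2, with means of 44282, 33365, 29658 and 3009. In lactation it was CSN2, CSN1S1, CSN1S2 and CSN3, with means of 210484, 184609, 106074 and 84926. CSN2 was above CSN1S1 in all 15 libraries. CSN1S1 and CSN3 did not separate in every late pregnancy library, where the log2 ratio of CSN1S1 to CSN3 ran from -0.01 to 0.45. Likewise CSN1S2 and CSN3 did not separate in every lactation library, where the log2 ratio of CSN1S2 to CSN3 ran from -0.04, in HM pool 1, to 0.46.

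Of the 6 ratios between caseins, 5 separated the states without overlap. The ratio of CSN1S2 to CSN3 rose by 3.89 on the log2 scale, from -3.58 ± 0.72 (SD, n = 9) to 0.31 ± 0.18 (SD, n = 6), that of CSN1S2 to CSN2 rose by 3.16, and that of CSN1S1 to CSN1S2 fell by 2.93. Among the other 3 genes the shifts were smaller. The ratio of CSN1S1 to CSN3 rose by 0.96 and that of CSN2 to CSN3 by 0.73, and each of these 5 ratios had an exact permutation p of 0.0002. The ratio of CSN1S1 to CSN2 rose by 0.23, from -0.42 ± 0.24 to -0.19 ± 0.10, with overlap (exact permutation p = 0.0374), and it lost its call in 7 of the 15 tests that left out 1 library (exact permutation, adjusted p of up to 0.0909). These left out late pregnancy LM pool 1, LM pool 2 or MM pool 1, or lactation HM pool 1, LM pool 1, MM pool 1 or MM pool 2, with differences of 0.20 to 0.24. The tests were two-sided and adjustment over the 6 ratios left the largest at 0.0374.

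**Figure D3:**
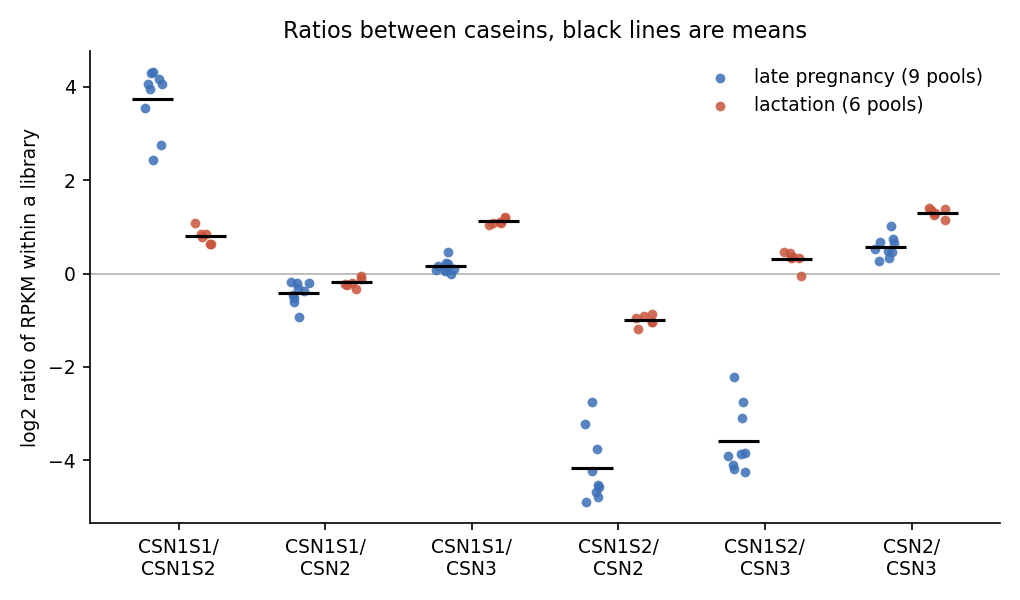
Log2 ratio of RPKM between caseins within a library for the 6 pairs, with 1 point for each of the 9 late pregnancy (blue) and 6 lactation (red) pools, black lines at the means and a grey line at equal levels. The 3 ratios that involve CSN1S2 shift by 2.93 to 3.89, and only the ratio of CSN1S1 to CSN2 overlaps between the states.

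A lane number stands in the name of each library, although the labels say that every library was run on both lanes. Within the libraries named for lane 7 (4 late pregnancy, 3 lactation) the CSN1S2 proportion differed by 15.0 percentage points and that of CSN3 by -9.92, and within those named for lane 8 (5 and 3) by 15.1 and -11.2. The log2 ratio of CSN1S2 to CSN2 rose by 3.16 within each lane. On the log2 CPM scale the increases within lanes 7 and 8 were 6.99 and 7.41 for CSN1S2, 4.11 and 4.45 for CSN1S1, 3.83 and 4.25 for CSN2, and 3.18 and 3.45 for CSN3.

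Reads that lie on a gene but outside its annotated exons were counted as intron reads. They include reads on any exon that the annotation lacks, and whether they came from unspliced RNA was not tested. Intron reads of all 4 caseins rose in lactation, but by less than the exon reads. They rose by 5.73 ± 0.28 (SE) on the log2 scale for CSN1S2 (adjusted p = 1.26e-14), 3.25 ± 0.18 for CSN1S1 (adjusted p = 1.86e-13), 2.51 ± 0.16 for CSN2 (adjusted p = 3.25e-12) and 2.06 ± 0.14 for CSN3 (adjusted p = 1.35e-11). These values are from edgeR on intron reads with TMM factors of their own, in which 4 of 4 caseins and 29.0% of the 10344 genes tested were called higher.

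Intron reads made up a smaller part of the reads on each casein in lactation than in late pregnancy. For CSN2 they were 1.72% of the reads on the gene in the lowest late pregnancy library, 1.98% at the median and 3.21% in the highest, and 0.732%, 0.827% and 0.914% in lactation. For CSN3 the values were 1.56%, 2.18% and 2.47% before lambing, and after it 0.777%, 0.927% and 0.982%. For CSN1S1 they were 2.04%, 2.96% and 4.39%, and 1.28%, 1.53% and 1.64%. No casein had a lactation library inside its late pregnancy range. For CSN1S2 the late pregnancy values were 2.64%, 3.76% and 7.70%, and those of lactation 1.43%, 1.81% and 2.00%. The 2 highest CSN1S2 values, 7.67% and 7.70%, came from LM pool 2 and MM pool 2.

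Measured as the log2 ratio of intron to exon reads with a pseudocount of 0.5, the decrease was largest in CSN2, from -5.48 ± 0.31 (SD, n = 9) to -6.91 ± 0.13 (SD, n = 6), a difference of -1.43 (exact permutation p = 0.0002). CSN1S2 differed by -1.27 (exact permutation p = 0.000599), CSN3 by -1.15 (exact permutation p = 0.0002) and CSN1S1 by -0.91 (exact permutation p = 0.000799). All 4 caseins were lower in lactation without overlap, which held for 3.89% of the 9801 genes tested on both exons and introns. The median of the difference over those genes was 0.05. Reads across an intron-exon boundary, set against reads across an exon-exon junction, gave differences of -1.59 for CSN2, -1.14 for CSN1S2, -1.31 for CSN3 and -1.04 for CSN1S1, with exact permutation p-values of at most 0.000599. This second measure was chosen after the data were seen. The lactation library of HM pool 1 lay inside the range of the other lactation libraries for the intron share of each casein, and the ratios differed by -1.41 and -1.44 for CSN2 and by -0.91 in each lane for CSN1S1.

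**Figure D4:**
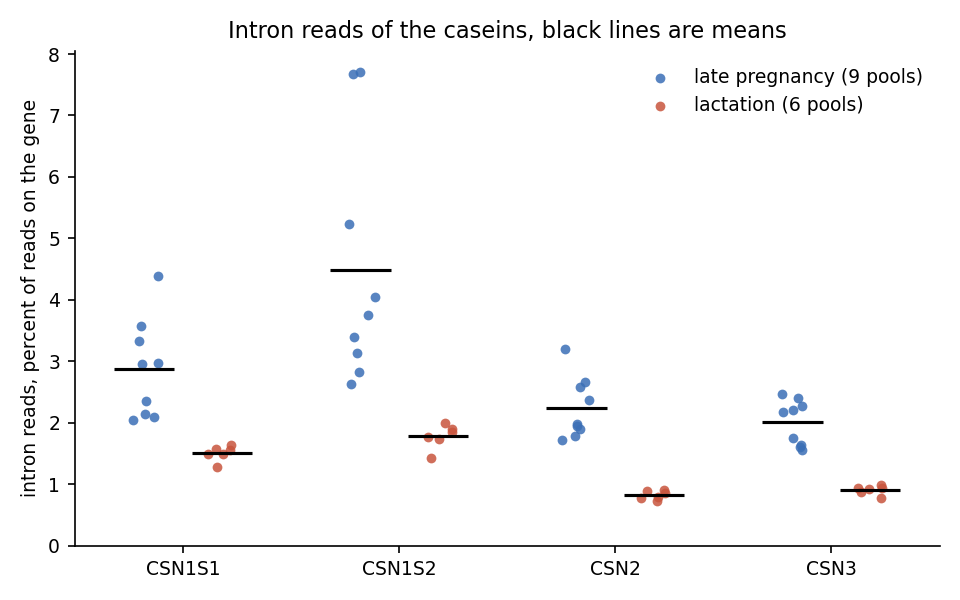
Intron reads of each casein as a percent of all reads on the gene, with 1 point for each of the 9 late pregnancy (blue) and 6 lactation (red) pools and a black line at the mean. Every lactation point lies below every late pregnancy point of the same gene, and 2 late pregnancy points of CSN1S2 reach 7.67% and 7.70%.

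The ratios between caseins were also taken on intron reads alone, an alternative added after the data were seen. The ratio of CSN1S2 to CSN2 rose by 3.32 on introns and 3.16 on exons, and that of CSN1S2 to CSN3 by 3.77 and 3.89. The ratio of CSN1S1 to CSN1S2 fell by 2.56 on introns and by 2.93 on exons. The ratio of CSN1S1 to CSN2 rose by 0.75 on introns, without overlap, and by 0.23 on exons. All 6 intron ratios had an exact permutation p of 0.0002.

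The levels of CSN1S2 were far more uneven between late pregnancy pools than those of the other caseins. The coefficient of variation of CPM over the 9 late pregnancy libraries was 84.8% for CSN1S2, 30.4% for CSN1S1, 23.9% for CSN3 and 23.8% for CSN2, and the median was 12.3% over all tested genes and 9.27% over the 28 genes that averaged 1000 CPM or more in each state. CSN1S2 ran from 899 CPM in MM pool 3 to 6553 CPM in HM pool 1, a span of 7.29-fold, while the highest library of each of the other caseins was 2.14 to 2.19 times its lowest. Without HM pool 1 the coefficient of CSN1S2 was 58.9%. In lactation the coefficients were 13.6% for CSN1S2, 9.69% for CSN2, 8.29% for CSN1S1 and 4.89% for CSN3, against a median of 15.8% over all tested genes and of 9.36% over the 28 abundant genes. The CSN1S2 value rested on HM pool 1, at 192936 CPM against 260333 to 297356 CPM in the other 5 pools, and was 5.56% without it. As proportions of the casein reads, CSN1S2 had a coefficient of 57.5% in late pregnancy and 7.97% in lactation, and the other genes had 8.18% to 9.40% and 2.96% to 5.22%.

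The caseins rose and fell together across the late pregnancy pools, and CSN1S1 and CSN3 did so most closely. Over the 9 libraries the log2 CPM of CSN1S1 and CSN3 had a Pearson r of 0.953 (exact permutation p = 2.76e-06, adjusted p = 3.31e-05) and a Spearman rho of 1.0 (exact permutation p = 5.51e-06, adjusted p = 6.61e-05), and without the 2 libraries farthest from the median r was 0.969. The other 5 pairs had r of 0.787 to 0.861 (exact permutation, adjusted p of 0.0128 to 0.0220) and rho of 0.7 to 0.867 (exact permutation, adjusted p of 0.0180 to 0.0741). Without the 2 farthest libraries their r lay between 0.497 and 0.815, and all 5 lost their call without HM pool 1 (r of 0.674 to 0.775, exact permutation, adjusted p of 0.0701 to 0.0884). CSN2 with CSN3 lost it without LM pool 2 as well (r = 0.737). There were 12 such relations in the 2 states, and the p-values were adjusted over these. All genes of a library share its scaling factor, and with library size alone 4 of the 6 late pregnancy pairs lost their call, whereas CSN1S1 with CSN3 and CSN1S2 with CSN3 did not.

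The HM pools had the highest CSN1S1 and CSN3, so the relations were also taken over the 6 LM and MM pools. There CSN1S1 and CSN3 had r = 0.978 (exact permutation p = 0.00139, adjusted p = 0.00833) and rho = 1.0, and the other 5 pairs had r of 0.487 to 0.694 (exact permutation, adjusted p of 0.231 to 0.317). No correlation was taken within a lane, since a lane held 4 or 5 late pregnancy and 3 lactation libraries. In lactation r over the 6 libraries ran from 0.592 to 0.912, and 2 pairs passed the adjustment, CSN1S1 with CSN3 (r = 0.912, exact permutation p = 0.0194, adjusted p = 0.0292) and CSN1S2 with CSN2 (r = 0.844, exact permutation p = 0.0125, adjusted p = 0.0220). With library size alone both of these pairs had a lower r and neither was called. No lactation pair passed the adjustment by Spearman's rho (exact permutation, lowest adjusted p = 0.0741). Without the 2 libraries farthest from the median of the first gene, the lactation r over the 4 left ran from -0.902 to 0.798. With so few libraries and a narrower range, these values cannot show what the relations rest on. CSN1S1 with CSN3 lost its call without HM pool 1, LM pool 2, MM pool 1 or MM pool 2 (r of 0.870 to 0.916), and CSN1S2 with CSN2 without HM pool 1, HM pool 2 or MM pool 1 (r of 0.642 to 0.951). For each pair the highest of these r was above that over all 6 libraries, so a lost call need not mean a weaker relation. Exon and intron levels of the same casein had r of 0.490 to 0.775 over the late pregnancy libraries and 0.422 to 0.897 over those of lactation, and none of these 8 relations passed adjustment (exact permutation, lowest adjusted p = 0.0591).

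**Figure D5:**
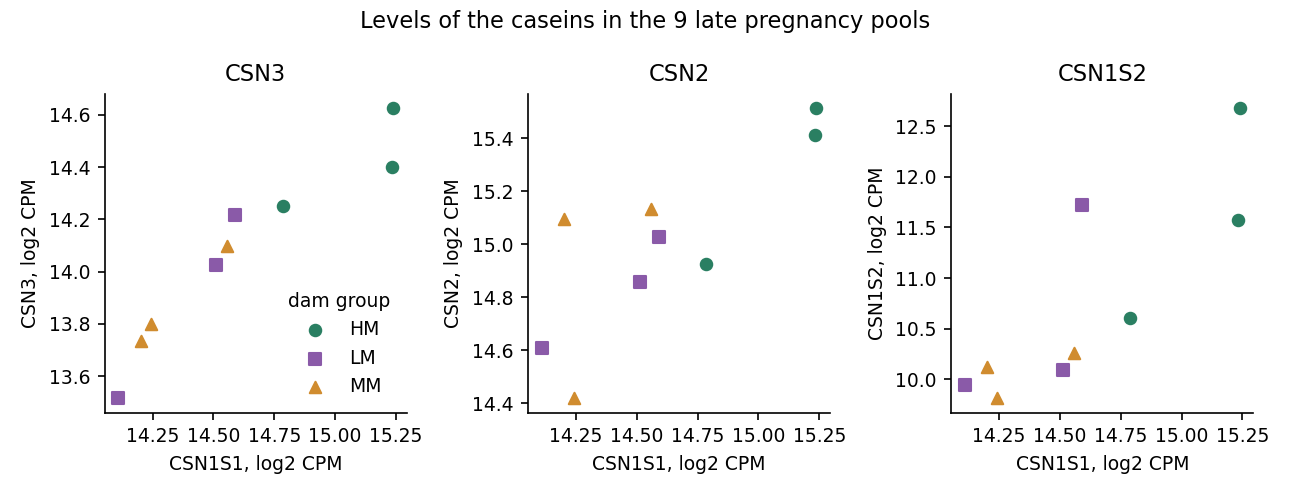
Log2 CPM of CSN3, CSN2 and CSN1S2 against that of CSN1S1 in the 9 late pregnancy pools, with the dam groups HM, LM and MM as circles, squares and triangles. CSN3 keeps the order of CSN1S1 in all pools (rho 1.0), and the 3 HM pools have the highest CSN1S1.

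Likeness was taken over 6302 other genes that averaged 10 CPM or more in each state. Those most like the summed caseins in their deviations from the state means over the 15 libraries were BLG (r = 0.945), which encodes the whey protein beta-lactoglobulin, PGD (r = 0.938), an enzyme of the pentose phosphate pathway, BTN1A1 (r = 0.917), a major protein of the milk fat globule membrane, TMA16 (r = 0.844) and GLYCAM1 (r = 0.839), a whey glycoprotein. Those most like CSN1S2 were UNC13B (r = 0.888), PGD (r = 0.875), KANSL2 (r = 0.871), SYTL2 (r = 0.860), which encodes a synaptotagmin-like protein of vesicle transport, and ACO1 (r = 0.857), the cytosolic aconitase. PGD was in both lists. TMA16 ran only from 24.7 to 30.7 CPM in late pregnancy and was not called between the states (log2 change -0.02, edgeR adjusted p = 0.771). The scaling factor that all genes of a library share enters these r as well. Within late pregnancy the r of these genes with the summed caseins was 0.869 to 0.982, and within lactation 0.435 (TMA16) to 0.879 (BLG). With CSN1S2 it was 0.886 to 0.941 within late pregnancy and 0.482 (UNC13B) to 0.960 (KANSL2) within lactation. These are descriptions without a test, since the genes were picked as the highest of 6302 values.

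Of the whey protein genes, LALBA, which encodes the alpha-lactalbumin of lactose synthase, rose by 5.42 ± 0.21 (SE) on the log2 scale (edgeR adjusted p = 1.37e-14), more than CSN1S1, CSN2 and CSN3 and less than CSN1S2, while GLYCAM1 rose by 3.09 ± 0.11 and BLG by 1.68 ± 0.11. The direction of BLG depended on the scaling, and its mean was lower in lactation on library size alone and after quantile normalization.

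The feeding of the dams was tested as an F-test over the 3 dam groups. All LM libraries were named for lane 8 and the HM libraries of lactation for lane 7, and the part of the lane in these comparisons was not tested. In late pregnancy the HM pools had 28258 to 38653 CPM of CSN1S1 and the 6 others 17676 to 24666, and the HM pools had 19507 to 25296 CPM of CSN3 and the others 11703 to 19059, so for these 2 genes the HM pools lay above all others. The 3 HM pools lay above the 6 others for 1.05% of the 13345 genes tested between the states. CSN2 and CSN1S2 overlapped between the dam groups. Within the casein reads, CSN1S2 was 1.56% to 1.63% in the 3 MM pools, and it ranged from 1.94% to 5.59% in HM and from 1.54% to 4.20% in LM pools. Over all genes 0 of 4 caseins were called in late pregnancy by edgeR (adjusted p = 0.648 for CSN1S1 and 1.00 for the other 3), as were 0.0% of the 13747 genes tested. At an unadjusted p under 0.05 edgeR had 571 of those genes, among them CSN1S1, CSN1S2 and CSN3. DESeq2 called 20 genes, and CSN1S1 was among these (adjusted p = 0.000875).

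In lactation 0 of 4 caseins were called between dam groups (edgeR, adjusted p of 0.943 to 0.991), where 0.00849% of 11777 genes were, a single gene, and DESeq2 called 36, no casein among these. HM pools of lactation had 444214 and 497029 CPM of CSN1S1 and the others 440239 to 544827, so the HM pools did not lie above the others there. The interaction of dam group with state called 0 of 4 caseins (edgeR, adjusted p of 0.753 to 0.846) and 0.0% of 14073 genes, with 913 at an unadjusted p under 0.05, and DESeq2 called 21, with no casein.

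Of the 15 other features that start within 500 kb of the cluster, 12 had too few reads to be tested, and 2 of these had 0 reads in all libraries. ODAM, which encodes an odontogenic protein secreted by ameloblasts, is annotated between CSN1S2 and CSN3 and had at most 2 reads in any library. The enamel protein genes AMTN, AMBN and ENAM, farther along, had at most 4 reads in any library. IGJ, the gene of the joining chain of immunoglobulins and also a plasma cell marker, rose by 0.91 ± 0.21 (SE, edgeR adjusted p = 0.000621), RUFY3 fell by 0.31 ± 0.07 (adjusted p = 0.00086), and UTP3 was at 0.02 ± 0.07 (adjusted p = 0.861). Thus 1 of 3 tested neighbours was called higher and 1 lower, against 33.1% of all genes called higher, and on library size alone the means of all 3 were lower in lactation.

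Genes that act on casein transcription were looked up from a list of 12, of which PRLR and YY1 were not matched by name. Of the 10 tested, 6 were higher in lactation and 2 lower, where 33.1% and 35.2% of all tested genes were. The suppressor CISH, a target of STAT5, rose by 1.74 ± 0.08 (SE) on the log2 scale (adjusted p = 9.27e-14), the glucocorticoid receptor gene NR3C1 by 1.18 ± 0.09 (adjusted p = 3.55e-10), the kinase gene JAK2 by 0.99 ± 0.10 (adjusted p = 4.08e-08) and ELF5 by 0.81 ± 0.05 (adjusted p = 2.37e-11). SOCS2 and NFIB rose by 0.44 and 0.42. STAT5A and STAT5B fell by 0.35 and 0.31, and STAT3 (-0.02, adjusted p = 0.673) and CEBPB (-0.06, adjusted p = 0.443) did not pass the test. The median over the 10 was 0.43, against -0.03 over all tested genes. On library size alone, where the median of all genes was -1.94, the mean of each of the 10 was lower in lactation, and so were the means of all 7 secretory luminal and all 7 myoepithelial markers.

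Of a list of 15 genes that act on casein after translation or load calcium and phosphate, 13 were matched and 12 tested, 9 being higher in lactation and 2 lower, beside 33.1% and 35.2% of all tested genes. The phosphate transporter gene SLC34A2 rose most, by 5.74 ± 0.15 (SE) on the log2 scale (adjusted p = 1.12e-16), from 8.29 ± 2.20 CPM (SD, n = 9) to 443 ± 56.2 (SD, n = 6). Calcium pump genes followed, with ATP2C2 of the Golgi at 3.53 ± 0.11 (adjusted p = 6.15e-16) and ATP2B2 of the apical membrane at 2.90 ± 0.15 (adjusted p = 1.2e-12). ST3GAL1, which adds sialic acid to O-glycans, rose by 1.54 ± 0.20, the phosphate transporter SLC20A2 by 1.26 ± 0.08 and GALNT3, which begins O-glycans, by 0.77 ± 0.09. The phosphate transporter SLC20A1 rose by 0.74 ± 0.06 (adjusted p = 4.45e-10) and the Golgi calcium pump ATP2C1 by 0.23 ± 0.05 (adjusted p = 0.000793). FAM20A, a partner of the casein kinase FAM20C, rose by 0.68 ± 0.11, whereas FAM20C itself and C1GALT1C1 were not matched by name. GALNT2 fell by 0.49 (adjusted p = 0.0495) and GALNT1 by 0.24 (adjusted p = 0.000146), and C1GALT1 was at 0.34 ± 0.20 (adjusted p = 0.136). CA6 had at most 1 read in a library. The median over the 12 was 0.75, and on library size alone the means of SLC34A2, ATP2C2 and ATP2B2 were higher in lactation and those of the other 9 lower.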

How the data were processed

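RNA of 15 mammary libraries (9 late pregnancy, 6 lactation) was measured. The authors mapped paired reads to the sheep genome with CLC Genomics Workbench. They deposited 1 table of 24691 features with unnormalized read counts on exons and whole genes. The deposited RPKM are the authors' exon reads scaled by exon length and mapped reads, also given after quantile normalization. Columns of the authors' own comparison (fold changes, p-values, means) were not used.

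Counts were exon reads, or gene reads for features without a transcript. They were tested with edgeR 4.0.16 (R 4.3.3) after filterByExpr and TMM scaling, with no covariate for state, and adjusted by Benjamini-Hochberg. Intron reads (gene less exon reads) were tested likewise. A check on simulated data preceded the fits. Exact permutation tests covered all assignments of the libraries (Python 3.11.15, scipy 1.17.1). DESeq2 1.42.0, limma 3.58.1, other scalings, filters and read sets, a replicate block and leaving out each library were alternatives. Precision is the spread between libraries, since reads carry no molecular identifiers.

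The members and gene lists were chosen with earlier results of these data known. Genes named are the caseins, features starting within 500 kb, lists for transcription and processing (at most 12 tested genes named, largest change first, beside members without a value), whey genes, cell markers and the 5 genes most correlated with the caseins or CSN1S2.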

Additional observations from a re-analysis of the deposited data

Results flagged for a closer look

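A library was picked out where its gap to the nearest other library of its state, divided by the range of the state, passed the critical value of Dixon's test. Of 40 sets of values (5 measures of each casein in each state) 6 gave such a library. Chance gives about 1 in 20 for independent sets, but these sets share reads, so the count cannot be set against that share. In late pregnancy HM pool 1 had the highest CSN1S2, at 6553 CPM against 3382 CPM in the next library and at 1.02% of the exon reads against 0.553%. In lactation HM pool 1 had the lowest CSN1S2, at 192936 CPM against 260333 CPM, and the highest CSN3, at 8.36% of the exon reads against 7.84% and at 13.0% of the casein reads against 11.8%. That lactation library is also the one with 86.8% of its gene reads in exons, and the part of this in its casein values was not tested. In lactation LM pool 2 had the fewest CSN1S2 intron-exon boundary reads per 100 exon-exon junction reads, 0.343 against 0.423 in the next library.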

How the results depend on the processing

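Under other settings 190 values stayed the same, 8 lost their call, 1 gained it and 9 moved further. A value stayed the same if it kept its direction and call or moved by less than its spread. A count of called genes stayed the same if its size was similar, whatever the direction of the calls. The 13057 genes called on library size alone were thus put with the 9122 of the main fit. With 1 library left out these counts were 633, 20, 0 and 7, and no value reversed. On quantile-normalized RPKM the CSN3 change was 0.016 and not called. Scaling on library size alone gave r of 0.789 for CSN1S1 and CSN1S2, 0.710 for CSN1S1 and CSN2, 0.700 for CSN1S2 and CSN2 and 0.663 for CSN2 and CSN3 in late pregnancy, and 0.299 for CSN1S1 and CSN3 and 0.508 for CSN1S2 and CSN2 in lactation, none of them called. It also gave coefficients of variation of 24.8% and 3.84% for CSN1S1 in late pregnancy and lactation and 4.36% for CSN2 in lactation. Dam nutrition called 20 genes in late pregnancy by DESeq2 (CSN1S1 adjusted p = 0.000875), in lactation 7 on library size alone, 391 without a filter and 36 by DESeq2, and as an interaction 2 without a filter and 21 by DESeq2. The causes were not tested.

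With 1 library left out, dam nutrition called 0 to 1 genes in late pregnancy, 0 to 20 in lactation and 0 to 10 as an interaction. The lactation count was 0 without HM pool 1, 20 without HM pool 2 and 5 without LM pool 2, and the interaction had 10 and 2 without the latter pools. Such a fit leaves a dam group 1 lactation pool, which is assumed to vary like those of the other groups. The shift in the ratio of CSN1S1 to CSN2 ranged from 0.17 to 0.26. In late pregnancy r ranged from 0.749 to 0.905 for CSN1S1 and CSN1S2, 0.726 to 0.919 for CSN1S1 and CSN2, 0.674 to 0.840 for CSN1S2 and CSN2, 0.775 to 0.890 for CSN1S2 and CSN3, and 0.684 to 0.890 for CSN2 and CSN3, and all 5 lost their call without HM pool 1. In lactation it ranged from 0.870 to 0.949 for CSN1S1 and CSN3 and 0.642 to 0.951 for CSN1S2 and CSN2. The coefficient of variation of CSN1S2 in lactation ranged from 5.56% to 15.3%.

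Deviations from the state means had r of -0.05 to 0.12 between same-named pools of the 2 states over 6 pairs. Since the best match of any name reached only 0.13, these values cannot tell whether same-named pools shared ewes. The main tests were unpaired and do not account for ewes biopsied in both states. With a replicate block 8324 genes were called and the casein changes ran from 3.32 for CSN3 to 7.14 for CSN1S2, all called. The shift in the ratio of CSN1S1 to CSN2 was 0.31 (exact sign-flip test, adjusted p = 0.0625), and the block changed no other casein call. The same 6 pairs without a block, added after the data were seen, gave 8496 calls.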

Other observations

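The share of exon reads that crossed an exon-exon junction differed between the caseins in the order of their exon numbers per length, at 84.5% ± 0.798 (SD, n = 9) for CSN1S2, 69.2% ± 1.31 for CSN1S1, 54.6% ± 0.942 for CSN2 and 48.8% ± 0.613 for CSN3 in late pregnancy. In lactation it was 87.3% ± 0.592 (SD, n = 6) for CSN1S2, 73.2% ± 0.895 for CSN1S1, 53.9% ± 0.505 for CSN2 and 49.2% ± 0.680 for CSN3. For CSN1S1 and CSN1S2 every lactation library lay above every late pregnancy library, and for CSN2 and CSN3 the states overlapped. These differences were not tested.

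Per kilobase, the intron reads of CSN1S1 had 0.211% ± 0.0605 of the density of its exon reads in late pregnancy and 0.109% ± 0.00893 in lactation. The corresponding values were 0.310% ± 0.144 and 0.119% ± 0.0132 for CSN1S2, 0.309% ± 0.0707 and 0.113% ± 0.00975 for CSN2, and 0.160% ± 0.0295 and 0.0710% ± 0.00570 for CSN3.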
